A study of Drosophila melanogaster with 15 samples.

Results

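Nuclear RNA of photoreceptor neurons was compared between the oldest and the youngest flies of an aging series, at 40 and 10 days after eclosion (emergence from the pupal case). The comparison used 6 of the 15 libraries of the series, 3 at day 40 and 3 at day 10, and asked which genes had changed over the full span that was sampled. Genes were kept if they had a CPM (counts scaled to a fixed library total) above 1 in at least 3 of the 6 libraries, which left 9880 of 17558 genes. All flies were males of a single genotype, labelled WT, which carried UAS-GFP-Msp300KASH at attP2 together with rh1-GAL4 and ry[506] in a w background, and were kept at 25 degrees C with 12:12 light:dark days. The KASH domain tethers the fluorescent protein to the outer face of the nucleus, and rh1-GAL4 is active in the outer photoreceptors R1 to R6 and, by the study's account, also in the antenna. Each library came from nuclei that were pulled out of the pooled heads of many males with an antibody against the tag.

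The fly eye is built of repeated units in which outer photoreceptors read motion and dim light, while the inner photoreceptors R7 and R8 read colour. Light is caught by rhodopsin in a stack of microvilli, the rhabdomere, a G protein cascade opens cation channels, and the cell signals to the brain with histamine. Nuclear RNA follows transcription more closely than the cytoplasmic pool does, so an increase or decrease here concerns RNA in the nucleus. The known markers of outer photoreceptors were present at both ages: ninaE, which encodes the main rhodopsin Rh1, stood at 29366, 30804 and 49527 CPM at day 40, against 31054, 26473 and 22780 CPM at day 10 (values are given throughout in the order of replicates 1, 2 and 3). The ages overlapped for ninaE. None of 14 testis markers and 1 of 10 accessory gland markers passed the filter, which cannot show tissue present in a single library. The testis markers summed to 0.377, 0.818 and 20.5 CPM at day 40, against 0.981, 0.313 and 0.278 CPM at day 10. The accessory gland markers summed to 3.39, 2.45 and 9.25 CPM at day 40, against 2.4, 2.92 and 2.5 CPM at day 10. Both sums were highest in day 40 replicate 3. In such bulk material, fewer nuclei of a type and less RNA per nucleus cannot be told apart.

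The libraries held 9943283 to 18515000 gene counts, and the deepest was day 40 replicate 3. Read pairs outside annotated exons numbered 56.4, 52.5 and 42.4 per 100 gene counts at day 40, against 103, 100.4 and 60.7 at day 10. The means were 50.4 ± 7.25 at day 40 and 88.2 ± 23.8 at day 10 (SD, n = 3 each, exact permutation p = 0.1, two-sided, the smallest that 3 against 3 allows). Genes of the mitochondrial genome took 0.943, 1.00 and 0.856% of gene counts at day 40, against 1.42, 1.75 and 2.34% at day 10. The ages did not overlap in either measure. Day 40 replicate 3 differed from the rest: of 5698 genes with a mean of at least 10 CPM, 8 lay more than 3-fold above and 17 more than 3-fold below all 5 others in that library. The 8 were the clock genes per, tim, vri, Pdp1 and cwo, the clock-associated Cipc, and Usp8 and Cyp4g1. Day 10 replicate 1 had 1 such gene and the remaining libraries had 0. The study's methods call the 3 libraries of an age biological replicates, each made from its own batch of frozen males, while the labels do not say whether these came from separate cultures. The p-values measure the spread between these samples.

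Across the genes tested, 764 differed between the ages (7.73% of 9880, edgeR quasi-likelihood test, adjusted p under 0.05), of which 436 were higher at day 40 (4.41%) and 328 were lower (3.32%). The median log2 change was 1.04 among the higher genes and -1.14 among the lower genes, against 0.0066 over all tested genes. At least 2-fold changes were found for 232 of the higher and 189 of the lower genes, and at least 4-fold changes for 69 and 58. For 756 of the 764, the day 40 values all lay above or all below the day 10 values, a pattern found in 29.4% of all tested genes. Without day 40 replicate 3, 353 genes were called (3.57%), 225 higher (2.28%) and 128 lower (1.3%). Of these, 340 were among the 764, which is 44.5% of the larger list and 96.3% of the smaller. All 764 genes kept their direction without day 40 replicate 3, and also without any other single library. The number of calls was 479 and 191 without day 40 replicates 1 and 2, and 107, 120 and 1182 without day 10 replicates 1, 2 and 3. Day 10 replicate 3 was therefore the library whose removal raised the count. It lay nearer to the day 40 mean than to the mean of its own partners for 100 of the 328 lower genes (30.5%) and for 24 of the 436 higher genes (5.5%). Scaling by library size alone gave 720 calls, 72.5% of them higher, in place of 57.1%. With the ratio of unassigned pairs as a covariate 22 genes were called, and since the ages do not overlap in this ratio, its part and that of age cannot be told apart.

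**Figure D1:**
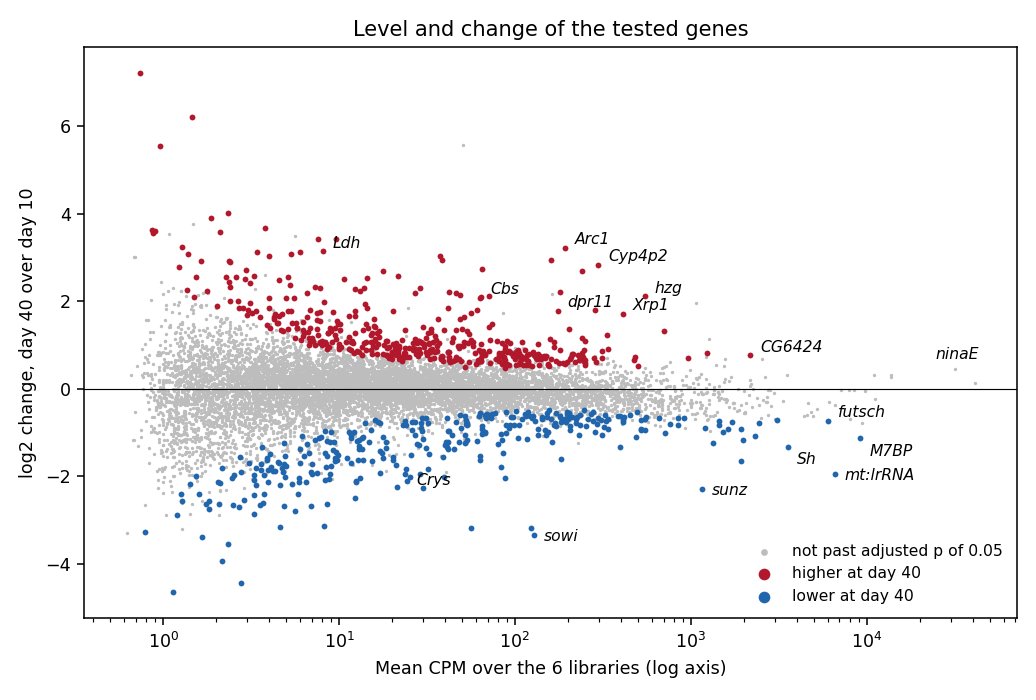
Mean CPM over the 6 libraries (log axis) against the log2 change of day 40 over day 10 for the 9880 tested genes. Red points are the 436 genes higher at day 40 and blue points the 328 lower; ninaE lies at the right end near 0, and mt:lrRNA, M7BP and Sh are among the abundant genes below the line.

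The largest increases at moderate or high levels were found in a synaptic capsid gene, in cytochrome P450 genes and in several genes that carry only an identifier. Arc1 (2R, positions 14357927 to 14360297 in BDGP6) encodes a capsid-forming protein that is induced by neuronal activity and packages its own mRNA for transfer between cells. It was measured at 279, 306 and 461 CPM at day 40, against 30.0, 34.7 and 47.7 CPM at day 10, which is 3.21 ± 0.24 as a log2 change with its standard error (edgeR, adjusted p = 0.000106). All 3 day 40 libraries were far above all day 10 libraries, and the change was 2.97 without day 40 replicate 3 (edgeR, adjusted p = 0.000107). The neighbouring gene Arc2 was also higher (log2 change 2.38, edgeR, adjusted p = 0.0171). CG9759 (3R, positions 13607078 to 13609246) stood at 70.8, 62.4 and 67 CPM at day 40, against 5.78, 10.0 and 8.69 CPM at day 10. Muc14A, which encodes a mucin, stood at 61, 61.7 and 80.5 CPM at day 40, against 10.4, 6.77 and 9.11 CPM at day 10. Both differed by about the same amount (log2 changes 3.03 and 2.95, edgeR, adjusted p = 0.000106 for each).

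Cyp4p1, Cyp4p2 and Cyp4p3 lie next to each other on chromosome 2R, from position 9237512 to 9244410 of BDGP6, and belong to the P450 monooxygenases, a family that oxidises lipids, hormones and foreign compounds. Cyp4p2 was the most abundant, with 441, 392 and 737 CPM at day 40, against 73.3, 77.9 and 68.5 CPM at day 10. Cyp4p1 was measured at 225, 194 and 436 CPM at day 40, against 28.7, 43.2 and 38.7 CPM at day 10. Cyp4p3 had 17.1, 20.6 and 31.8 CPM at day 40, against 3.92, 4.06 and 5.98 CPM at day 10. For each of them day 40 replicate 3 was the highest library, and without it the log2 changes were 2.51, 2.52 and 2.01 in place of 2.95, 2.84 and 2.3 for Cyp4p1, Cyp4p2 and Cyp4p3. The 3 genes are similar copies, so that reads shared between them are uncertain. Among all 69 P450 genes tested these were the only higher ones, and Cyp4c3, Cyp4ac1 and Cyp4ac2 were lower, with log2 changes of -1.89, -1.14 and -1.73 (edgeR, adjusted p = 0.006, 0.0284 and 0.0258). The family's 6 calls were 8.7% of its tested genes, near the 7.73% of all tested genes. The lower calls of this family numbered 3 with all libraries, 1 without day 40 replicate 2 or 3 or day 10 replicate 1 or 2, and 6 without day 10 replicate 3. Cyp4g1, an oenocyte enzyme of cuticular hydrocarbon synthesis, did not pass the test and stood at 1.6, 1.72 and 293 CPM at day 40, against 1.42, 2.19 and 2.5 CPM at day 10. Its level was thus high in a single library.

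The remaining genes with the 12 largest increases were CG15784, vri, CR43281, nompB, Gnmt and CG14907. The intraflagellar transport gene nompB, which is needed to build sensory cilia, stood at 42, 27 and 43 CPM at day 40, against 5.34, 5.0 and 8.2 CPM at day 10. Gnmt, the glycine N-methyltransferase that disposes of S-adenosylmethionine, stood at 24.7, 28.8 and 19.8 CPM at day 40, against 6.87, 2.29 and 3.55 CPM at day 10. CR43281 stood at 36.9, 27 and 29.1 CPM at day 40, against 4.69, 4.9 and 4.73 CPM at day 10. The lowest day 40 library lay far above the highest day 10 library in all 3 of these genes. CG14907 had 18.5, 17.4 and 18.6 CPM at day 40, against 3.05, 3.75 and 2.78 CPM at day 10, and CG15784 had 69.3, 85.9 and 186 CPM at day 40, against 13.3, 15.5 and 22.3 CPM at day 10, with the highest value in day 40 replicate 3. Of these 12 genes, 12, 12 and 12 stayed past the threshold without day 40 replicates 1, 2 and 3 in turn, and 11, 11 and 12 without day 10 replicates 1, 2 and 3 in turn.

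**Figure D2:**
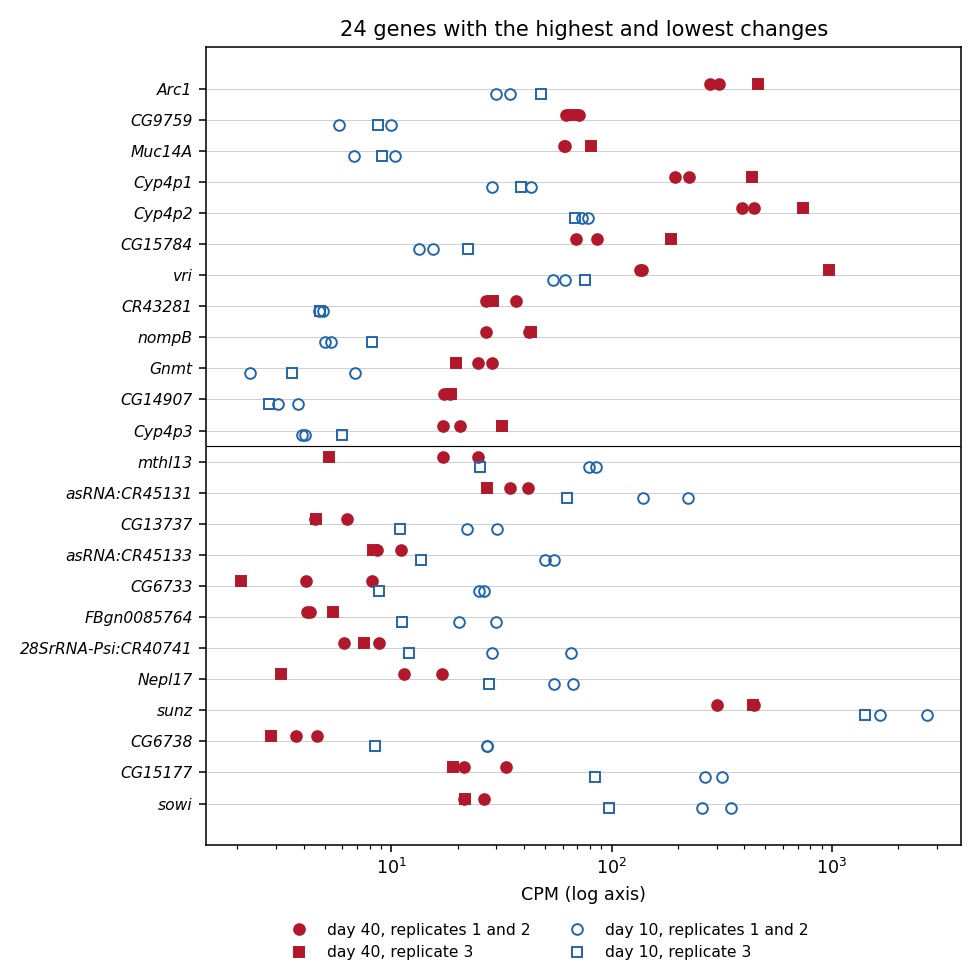
CPM in each library (log axis) of the 12 genes with the highest and the 12 with the lowest log2 change among called genes with a mean of at least 10 CPM. Filled red symbols are day 40 and open blue symbols day 10, with squares for replicate 3; the ages do not overlap for any of the 24, vri is far higher in day 40 replicate 3 (973 CPM) than in the other day 40 libraries, and the open squares of the lower genes lie nearest to day 40.

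The largest decreases at a mean of at least 10 CPM included a trio of adjacent genes on chromosome 3R. sowi (3R, positions 6626930 to 6627900) was measured at 26.4, 21.3 and 21.5 CPM at day 40, against 257, 349 and 97.9 CPM at day 10, and its log2 change was -3.35 ± 0.38 (standard error; adjusted p = 0.00114 in edgeR). CG15177 stood at 33.1, 21.4 and 19.1 CPM at day 40, against 267, 317 and 84 CPM at day 10. sunz, the most abundant of them, stood at 443, 300.3 and 439.9 CPM at day 40, against 1658, 2701 and 1412 CPM at day 10. In all 3 genes day 10 replicate 3 was the lowest of its age. A second pair of neighbours on 3R, CG6738 and CG6733, also fell (log2 changes -2.50 and -2.09, edgeR, adjusted p = 0.0101 and 0.0314). Nepl17, which encodes a neprilysin-like peptidase, had 16.9, 11.4 and 3.16 CPM at day 40, against 54.6, 66.9 and 27.7 CPM at day 10. The methuselah-like receptor gene mthl13 had 24.8, 17.3 and 5.22 CPM at day 40, against 85.1, 79 and 25.2 CPM at day 10. Both were lowest in day 40 replicate 3, and without it their log2 changes were -1.80 and -1.57, with adjusted p = 0.0236 and 0.0716 (edgeR). The list was completed by CG13737, the antisense RNAs asRNA:CR45131 and asRNA:CR45133, a 28S ribosomal RNA pseudogene and FBgn0085764, which has no symbol in the annotation used. The ribosomal RNA pseudogene 28SrRNA-Psi:CR40741 stood at 6.12, 8.75 and 7.51 CPM at day 40, against 65.2, 28.8 and 12 CPM at day 10, and its reads cannot be told from those of other ribosomal RNA copies. Of these 12 genes, 11, 7 and 8 stayed past the threshold without day 40 replicates 1, 2 and 3 in turn, and 4, 4 and 12 without day 10 replicates 1, 2 and 3 in turn.

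Among the most abundant genes the changes were smaller. The higher ones were CG6424, Hsc70-4, HERC2, cathD, hzg and NAT1, and the lower ones M7BP, mt:lrRNA, futsch, Sh, nrv3 and Syt1. hzg (3L, positions 15992669 to 16004736) had the largest change of the higher group, at 813, 742 and 1120 CPM at day 40, against 173, 225 and 222 CPM at day 10 (log2 change 2.11 ± 0.19, edgeR, adjusted p = 0.000309). cathD, the aspartic protease of the lysosome, stood at 784, 716 and 1533 CPM at day 40, against 479, 423 and 309.7 CPM at day 10, with the highest value in day 40 replicate 3. Hsc70-4, the main constitutive Hsp70 chaperone, was measured at 1330, 1438 and 1968 CPM at day 40, against 1012, 857 and 812 CPM at day 10. All 3 higher genes just given had their highest value in day 40 replicate 3. M7BP (2R, positions 7623242 to 7651787), which encodes a partner of the unconventional myosin 7a, stood at 5535, 5875 and 5822 CPM at day 40, against 15756, 12313 and 9703 CPM at day 10. Sh (X, positions 17924307 to 18063247), the Shaker potassium channel that shapes the photoreceptor voltage response, had 2375, 2001 and 1702 CPM at day 40, against 6359, 5971 and 2899 CPM at day 10. The large ribosomal RNA of the mitochondrion, mt:lrRNA, had 3157, 2745 and 2292 CPM at day 40, against 9385, 9933 and 12173 CPM at day 10. These abundant decreases were seen in every day 40 library, though Sh in day 10 replicate 3 was close to the day 40 values. Of the 6 higher genes, 4, 2 and 4 stayed past the threshold without day 40 replicates 1, 2 and 3 in turn, and 1, 1 and 6 without day 10 replicates 1, 2 and 3 in turn. Of the 6 lower genes, 2, 1 and 2 stayed past the threshold without day 40 replicates 1, 2 and 3 in turn, and 1, 2 and 6 without day 10 replicates 1, 2 and 3 in turn.

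Genes for the cytosolic ribosome, the machine that makes protein, held more increases than any other list. Of 79 tested genes for its proteins 45 were higher and 0 lower, against 4.41 and 3.32% of all tested genes, and the median log2 change was 0.62. A positive change was found for 77 of the 79, and no gene exceeded 0.91. For 73 of them every day 40 value lay above the day 10 values, a pattern found in 16% of all tested genes. The summed level of the 87 ribosomal protein genes in the table was 11803, 13279 and 12525 CPM at day 40, against 7589, 8080 and 9279 CPM at day 10. RpL7A stood at 386, 416 and 409.6 CPM at day 40, against 203, 194 and 269 CPM at day 10, RpL37A at 98.4, 106 and 138 CPM at day 40, against 56.8, 59 and 66.7 CPM at day 10, and RpS27 at 115, 143 and 141 CPM at day 40, against 67.4, 67.9 and 83.4 CPM at day 10. These were among the largest changes of the group (log2 changes 0.86, 0.91 and 0.87, edgeR, adjusted p = 0.0127, 0.0123 and 0.0115). The 45 calls became 31, 1 and 29 without day 40 replicates 1, 2 and 3, and 0, 0 and 57 without day 10 replicates 1, 2 and 3. Scaling by library size alone gave 48 and DESeq2 53. The 67 tested genes of the mitochondrial ribosome had a median of 0.12 and 1 call, mRpL50.

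Other parts of protein synthesis were changed in fewer of their genes. Rack1, a scaffold protein of the small ribosomal subunit, stood at 296, 315 and 314 CPM at day 40, against 166, 158 and 198 CPM at day 10 (log2 change 0.83, edgeR, adjusted p = 0.0101). Of 35 initiation factor genes 4 were higher and 0 lower: eIF2beta, eIF2Bdelta, eIF2A and eIF3f1, with log2 changes of 0.93, 0.85, 0.71 and 0.64 (edgeR, adjusted p = 0.0267, 0.0287, 0.017 and 0.0258). Of 32 aminoacyl-tRNA synthetase genes, whose products load amino acids onto tRNAs, 6 were higher and 1 lower. AspRS had the largest of these increases, at 65.3, 63.5 and 88.9 CPM at day 40, against 29.3, 28.1 and 26.6 CPM at day 10. The lower one was GluRS-m, the mitochondrial glutamyl-tRNA synthetase, at 7.53, 7.85 and 7.73 CPM at day 40, against 24, 16.7 and 12.3 CPM at day 10. NAT1, which encodes a relative of the initiation factor eIF4G, was higher as well, as given among the abundant genes. The 3 genes that the study singled out for translation control were chosen on these samples, so that the 2 that were called are no independent evidence. Of the 58 called genes of protein synthesis, 38, 4 and 35 stayed past the threshold without day 40 replicates 1, 2 and 3 in turn, and 2, 1 and 57 without day 10 replicates 1, 2 and 3 in turn.

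The chaperone genes that were called were also all higher. The CCT chaperonin folds actin and tubulin in a ring-shaped chamber, and prefoldin hands it substrates. All 14 tested genes of CCT and prefoldin had positive changes, 6 of them were called, and the median was 0.77. CCT5 stood at 42.6, 48.1 and 52.3 CPM at day 40, against 22.2, 14.2 and 19.2 CPM at day 10, with a log2 change of 1.36 ± 0.20 (SE), with adjusted p = 0.00433 in edgeR. CCT1 and CCT4 changed by 1.35 and 1.16 (edgeR, adjusted p = 0.00528 and 0.0101). The ages did not overlap for 11 of the 14 genes, all higher, against 16% of all tested genes. Of 8 tested small heat shock genes 3 were higher: Hsp23, Hsp26 and l(2)efl. Hsp26 had 6.31, 6.54 and 14.2 CPM at day 40, against 2.4, 0.938 and 2.99 CPM at day 10, and Hsp23 had 4.61, 4.99 and 14.7 CPM at day 40, against 1.42, 1.35 and 2.85 CPM at day 10. Both were highest in day 40 replicate 3, and none of the 3 was called without that library, with adjusted p = 0.15, 0.0912 and 0.117 for Hsp23, Hsp26 and l(2)efl (edgeR). Of 18 Hsp70, Hsp90 and co-chaperone genes, Hsc70-4 and Hsc70-2 were higher. CCT1, CCT4, CCT5 and Hsc70-4 had been named by the study as rising in these samples, so that their calls are no independent evidence.

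In the endoplasmic reticulum 4 of 26 genes were higher and 0 lower. Xbp1, the transcription factor of the unfolded protein response, stood at 254, 252 and 286 CPM at day 40, against 176, 167 and 174 CPM at day 10 (log2 change 0.61, edgeR, adjusted p = 0.0206). It had also been named by the study as rising in these samples, so that its call is no independent evidence. Gp93, CaBP1 and Sec61beta, which encode a chaperone, a disulfide isomerase and a translocon subunit, changed by 0.55, 0.80 and 0.91 (edgeR, adjusted p = 0.046, 0.0284 and 0.0362). Of 35 proteasome genes 31 had positive changes, with a median of 0.41, but Prosalpha2 was the sole higher call. Prosalpha3T, a testis form of a proteasome subunit, was lower, at 27.2, 24 and 23.7 CPM at day 40, against 60.5, 79.7 and 33.2 CPM at day 10. The proteasome calls made up 5.71% of the list, below the 7.73% of all tested genes. Of 24 nuclear pore and lamina genes 23 had positive changes, with a median of 0.41, and Nup98-96 and bocks were called (8.33%, near the 7.73% of all tested genes). Of the 17 called genes of chaperones, endoplasmic reticulum and proteasome, 10, 3 and 4 stayed past the threshold without day 40 replicates 1, 2 and 3 in turn, and 2, 2 and 15 without day 10 replicates 1, 2 and 3 in turn.

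**Figure D3:**
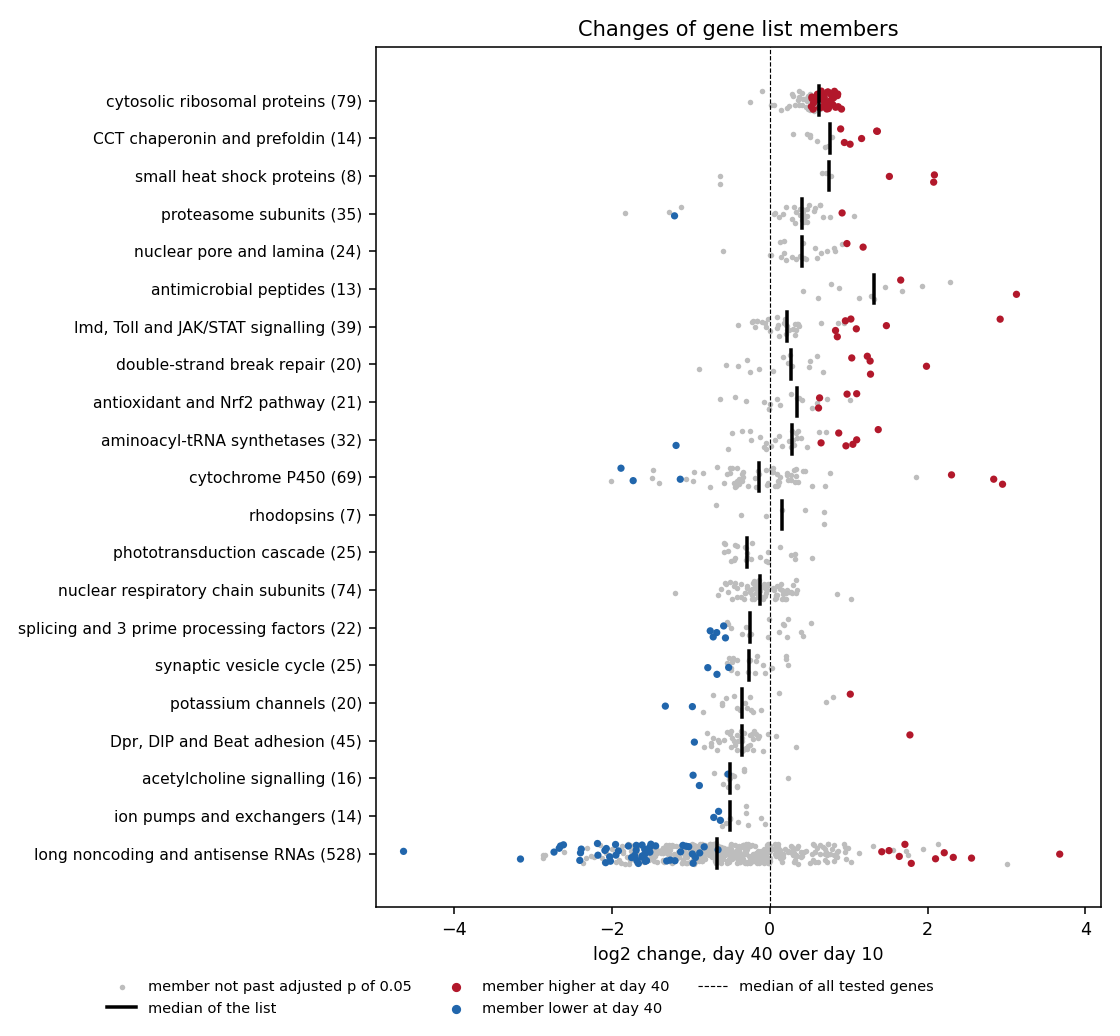
log2 change of day 40 over day 10 for each tested member of 21 gene lists (number of members in brackets). Red and blue points passed an adjusted p of 0.05, black bars are list medians and the dashed line is the median of all tested genes; the 79 ribosomal protein genes form a tight group around 0.62, while the 528 noncoding RNAs are spread around -0.67.

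Genes for DNA repair and for stress responses were higher in part. Of 20 genes of double-strand break repair, 5 were higher and 0 lower (median 0.27). Ku80 and Irbp encode the 2 subunits of the Ku end-binding complex, and PolQ encodes a polymerase that joins ends through short repeats. Ku80 stood at 9.41, 11.3 and 18.7 CPM at day 40, against 3.71, 2.71 and 3.55 CPM at day 10 (log2 change 1.99, edgeR, adjusted p = 0.00785). PolQ had 19, 19.1 and 14.4 CPM at day 40, against 7.41, 6.15 and 7.99 CPM at day 10 (log2 change 1.28, edgeR, adjusted p = 0.0113). Irbp and the nuclease gene mre11 changed by 1.24 and 1.27, and the gene for the partner of mre11, rad50, by 1.04 (edgeR, adjusted p = 0.0299, 0.0231 and 0.00475). Of 22 genes of translesion synthesis, excision and mismatch repair, 17 had positive changes and 2 were called (9.09%, near the 7.73% of all tested genes). These were PolZ1, the catalytic subunit of polymerase zeta, at 46.8, 55.1 and 63.5 CPM at day 40, against 18.1, 16.9 and 19.3 CPM at day 10, and PolH, polymerase eta, at 19.9, 22.7 and 19.2 CPM at day 40, against 9.81, 12.8 and 8.83 CPM at day 10. Among its rising genes from these samples the study had named mre11, rad50, Ku80, PolQ, PolZ1 and PolH, some under older symbols. The calls of these genes are therefore no independent evidence.

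Xrp1 (3R, positions 18914968 to 18926989), a stress-induced transcription factor that is also activated by DNA damage, was among the clearest changes, with 547, 584 and 769 CPM at day 40, against 179, 169 and 229.5 CPM at day 10 (log2 change 1.72 ± 0.18, edgeR, adjusted p = 0.000772). Its values did not overlap, and the change without day 40 replicate 3 was 1.56. Hph, the oxygen-sensing prolyl hydroxylase, was lower (-0.88, edgeR, adjusted p = 0.0308). Of 21 genes in an antioxidant list 4 were higher. Trxr1 and Prx2 encode thioredoxin reductase and a peroxiredoxin and changed by 0.63 and 0.62 (edgeR, adjusted p = 0.02 and 0.031). The other members called were isoQC and GlnRS, which encode a glutaminyl cyclase and a tRNA synthetase and are not antioxidant enzymes. The study had named Xrp1, Trxr1, isoQC and GlnRS among its rising genes from these samples, so that their calls are no independent evidence. GstO1 and GstD9 were the higher ones of 23 glutathione S-transferase genes and the only calls there (8.7%, near the 7.73% of all tested genes). Of the 15 called genes of repair and stress, 13, 5 and 9 stayed past the threshold without day 40 replicates 1, 2 and 3 in turn, and 4, 6 and 15 without day 10 replicates 1, 2 and 3 in turn.

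The immune genes that were called were all higher at day 40, most of them at low levels. All 13 antimicrobial peptide genes tested had positive changes, with a median of 1.32, but only DptB and BomBc3 were called. DptB, a diptericin that acts on Gram-negative bacteria, stood at 6.12, 8.42 and 3.92 CPM at day 40, against 0.545, 0.833 and 0.695 CPM at day 10 (log2 change 3.13, edgeR, adjusted p = 0.00456). BomBc3, a bomanin of the Toll response, stood at 6.21, 8.01 and 6.64 CPM at day 40, against 0.981, 2.81 and 2.71 CPM at day 10. The ages did not overlap for 10 of the 13, all higher, against 16% of all tested genes. In Imd, Toll and JAK/STAT signalling 7 of 39 genes were higher and 0 lower. They act at several steps: PGRP-SD in recognition, spz and upd3 as extracellular ligands, Myd88 and IKKbeta inside the cell, Dif as a transcription factor, and Tep3 as a secreted effector. Tep3 was measured at 37.9, 41.7 and 35.2 CPM at day 40, against 14.3, 18.6 and 20.6 CPM at day 10, with a log2 change of 1.10 (edgeR, adjusted p = 0.0101). PGRP-SD and IKKbeta changed by 1.48 and 1.03 (edgeR, adjusted p = 0.0206 and 0.0334). upd3 was close to the counting floor at day 10, with 1.79, 3.6 and 7.13 CPM at day 40, against 0.763, 0.417 and 0.487 CPM at day 10, where 3 counts equal 0.162 to 0.302 CPM. Of these 9 calls, 5, 2 and 4 stayed past the threshold without day 40 replicates 1, 2 and 3 in turn, and 1, 1 and 9 without day 10 replicates 1, 2 and 3 in turn.

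In energy metabolism the data showed a single large increase. Ldh (3L, positions 6259105 to 6262694), the enzyme that turns pyruvate into lactate, stood at 13.3, 12.4 and 17.8 CPM at day 40, against 1.53, 1.56 and 1.81 CPM at day 10, a log2 change of 3.14 ± 0.29 (SE), with adjusted p = 0.000309 in edgeR. It was the only one called of 22 genes of glycolysis, trehalose and lactate use, whose median was 0.10. None of 74 nuclear genes for the respiratory chain was called by edgeR (median -0.12). At an unadjusted p under 0.05 there were 2 higher and 9 lower, and DESeq2 called 2 lower and limma-voom 0. In the mitochondrial genome mt:lrRNA and mt:srRNA, its 2 ribosomal RNAs, were lower and the other 13 tested genes were not called. mt:srRNA stood at 874, 884 and 637 CPM at day 40, against 1198, 2448 and 1993 CPM at day 10. Thor, a translational repressor below insulin and TOR signalling, was lower (-0.82, edgeR, adjusted p = 0.0387), and ref(2)P, the adaptor that marks cargo for autophagy, was higher (0.57, edgeR, adjusted p = 0.032). Both Thor and ref(2)P were past the threshold with 6 libraries and not without day 40 replicate 3 (edgeR, adjusted p = 0.1 and 0.0813).

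Of 151 tested genes in the lists of potassium channels, gap junctions, pumps, synapses and neuronal surface proteins, 18 were called (11.9%, against 7.73% of all tested genes). The lists of 11 voltage-gated sodium and calcium channels and 24 neuronal RNA-binding proteins, which held 0 calls, are not among these lists. Of the 18 calls, 16 were lower and 2 higher, where 3.32% of all tested genes were lower and 4.41% higher. The 18 include Sh, shakB, Hdc, Sap47 and Ace, which the study had named from these samples. Of 14 genes for ion pumps and exchangers every one had a negative change (median -0.50), and nrv3, nrv2 and kcc were called. nrv3 and nrv2 encode beta subunits of the sodium-potassium pump and kcc encodes a potassium-chloride cotransporter. nrv3 stood at 2533, 2298 and 2222 CPM at day 40, against 3718, 4319 and 3510 CPM at day 10, and nrv2 at 116, 115 and 126 CPM at day 40, against 182, 186 and 192 CPM at day 10. kcc had 325, 304 and 301 CPM at day 40, against 517, 485 and 436 CPM at day 10. The 3 changed by -0.71, -0.65 and -0.63 (edgeR, adjusted p = 0.03, 0.0156 and 0.0227). Among 20 potassium channel genes Sh and eag were lower and the inward rectifier Irk1 was higher, at 34.8, 41 and 53.8 CPM at day 40, against 21.8, 18.1 and 24 CPM at day 10. eag stood at 1216, 984 and 860.5 CPM at day 40, against 2135, 2494 and 1419 CPM at day 10. Of 5 innexin genes, which form gap junctions, shakB and Inx2 were lower. shakB had 122, 150.2 and 176 CPM at day 40, against 309.9, 307 and 317 CPM at day 10, a log2 change of -1.06 ± 0.15 (SE), with adjusted p = 0.00456 in edgeR, and it stayed past the threshold whichever library was left out. How many of the other neuronal calls did so is given with the synaptic genes.

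At the synapse 3 of 25 genes of the vesicle cycle were lower and 0 higher (median -0.27). Syt1, the calcium sensor of fast release, stood at 1931, 1634 and 1840 CPM at day 40, against 3163, 3633 and 2528 CPM at day 10. Sap47 and Syt7 changed by -0.67 and -0.52 (edgeR, adjusted p = 0.0226 and 0.0464). nwk, an actin-linked adaptor of synapse growth, was the 1 called of 18 active zone genes (-0.67, edgeR, adjusted p = 0.026). That is 5.56% of the list, below the 7.73% of all tested genes. Hdc, the histidine decarboxylase that makes the photoreceptor transmitter histamine, stood at 273, 239 and 261 CPM at day 40, against 433, 425 and 311 CPM at day 10 (log2 change -0.60, edgeR, adjusted p = 0.0457). It was the only called gene of 8 in the histamine cycle. In acetylcholine signalling 3 of 16 genes were lower: the receptor subunits nAChRbeta1 and nAChRalpha4, and Ace, the esterase that breaks the transmitter down. nAChRalpha4 had 63.4, 74.9 and 56.9 CPM at day 40, against 114, 106 and 141 CPM at day 10. Of 45 genes of the Dpr, DIP and Beat surface proteins, which match neurons to partners, 42 had negative changes (median -0.36). Their 2 calls went in opposite directions, with dpr19 lower (-0.96, edgeR, adjusted p = 0.0101) and dpr11 higher. dpr11 (3R, positions 6529169 to 6593330) stood at 282, 228 and 303 CPM at day 40, against 75, 92.5 and 69.8 CPM at day 10, a log2 change of 1.78 ± 0.16 (SE), with adjusted p = 0.000309 in edgeR. The 16 neuronal genes that the study itself named did not overlap between the ages in any case and 7 were called lower. Of all tested genes 13.4% were lower without overlap and 3.32% were called lower. This list was chosen on these samples, so that its counts are no independent evidence. Sh, shakB, Hdc, Sap47 and Ace belong to this list and also count among the 18 called genes of the other neuronal lists. Those 18 are therefore not independent of the study's choice either. Of those 18 genes, 8, 5 and 8 stayed past the threshold without day 40 replicates 1, 2 and 3 in turn. Without day 10 replicates 1, 2 and 3 in turn, 3, 4 and 16 did.

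In the visual machinery 6 of 85 genes in 5 lists were called (7.06%), near the 7.73% of all tested genes. None of 7 rhodopsin genes and none of 25 phototransduction genes passed edgeR's test. At an unadjusted p under 0.05 there were 2 higher rhodopsin genes, and 1 higher and 9 lower phototransduction genes. DESeq2 called 4 of the phototransduction genes lower and 0 of the rhodopsin genes, and limma-voom called 0 in both. The median change was -0.30 for phototransduction, with 5 of the 25 positive, and 0.15 for the rhodopsins. The maturation of rhodopsin held 3 calls among 14 genes: Rdh1, a retinol dehydrogenase, was higher, and the glycan-trimming enzymes Hexo1 and alpha-Man-Ia were lower. Hexo1 stood at 162, 116 and 146 CPM at day 40, against 264, 332 and 215 CPM at day 10, and alpha-Man-Ia at 148, 159.6 and 136 CPM at day 40, against 237, 260.0 and 213 CPM at day 10. Hexo1 and alpha-Man-Ia had been named by the study as falling in these samples, so that their calls are no independent evidence. Among 19 eye pigment genes se and Pu, both of the pteridine pathway, were lower (-1.16 and -0.61, edgeR, adjusted p = 0.0228 and 0.0427). sqh, the myosin regulatory light chain, was the 1 higher gene of 20 for the rhabdomere and apical membrane (0.74, edgeR, adjusted p = 0.0206). Of these 6 calls, 3, 0 and 2 stayed past the threshold without day 40 replicates 1, 2 and 3 in turn, and 0, 1 and 5 without day 10 replicates 1, 2 and 3 in turn.

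Long noncoding RNAs and antisense RNAs held more decreases than any other list. Of 528 tested, 52 were lower and 10 higher, against 3.32 and 4.41% of all tested genes, and the median log2 change was -0.67. Antisense RNAs, which are named after their position opposite another gene, held 20 lower and 3 higher calls among 227 (8.81% lower, median -0.80), and the other long noncoding RNAs 32 lower and 7 higher among 301 (10.6% lower, median -0.59). Protein-coding genes held 253 lower and 407 higher calls among 8993 (2.81% lower, median 0.03). With all 6 libraries the shares also differed at matched levels: at 5 to 20 CPM 13.1% of the antisense RNAs, 14.3% of the other long noncoding RNAs and 2.06% of the protein-coding genes were lower, and above 20 CPM 42.9, 22.2 and 3.97%. Only 14 antisense RNAs lay above 20 CPM. Under 5 CPM, where 152 of the 227 antisense and 202 of the 301 other long noncoding RNAs lay, the shares were 3.95, 7.43 and 1.64%. Without day 40 replicate 3, the lower calls at 5 to 20 CPM numbered 2 of 61 antisense RNAs, 0 of 63 other long noncoding RNAs and 20 of 2673 protein-coding genes, and above 20 CPM 2 of 14, 3 of 36 and 73 of 4060. Under 5 CPM they numbered 1 of 152, 5 of 202 and 13 of 2260. Scaling by library size alone, which moves the median of all genes to 0.12, left the medians at -0.66 for antisense and -0.43 for other long noncoding RNAs, and DESeq2 and limma-voom called 99 and 28 of the 528 lower. Without day 40 replicates 1, 2 and 3 the 52 lower calls became 33, 3 and 13, and without day 10 replicates 1, 2 and 3 they became 0, 1 and 101. The summed level of the 2262 such RNAs in the table was 25794, 23894 and 30126 CPM at day 40, against 35644, 43100 and 35449 CPM at day 10. The share of pairs outside annotated exons was also lower at day 40, as given above. The part of that share in the result was not tested.

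**Figure D4:**
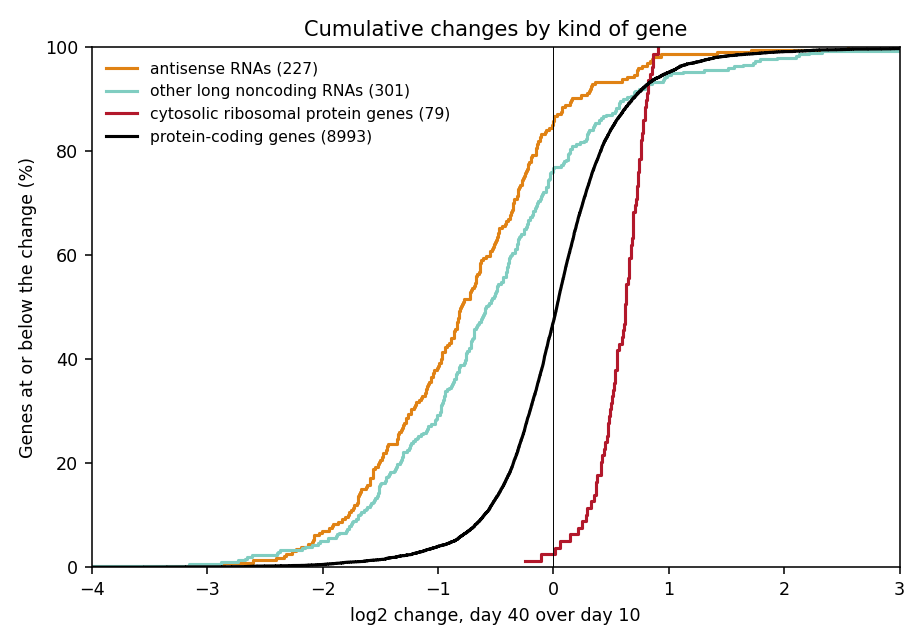
Cumulative share of genes (%) at or below each log2 change of day 40 over day 10, for 227 antisense RNAs, 301 other long noncoding RNAs, 79 cytosolic ribosomal protein genes and 8993 protein-coding genes. The curves of the noncoding RNAs lie to the left of the protein-coding genes (85.9 and 76.7% below 0, against 47.3%), and that of the ribosomal protein genes lies to the right.

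Single noncoding RNAs are described with the gene opposite to them. asRNA:CR45131 (2R, positions 7631495 to 7635219) lies opposite M7BP and stood at 34.7, 41.5 and 27.3 CPM at day 40, against 222, 139 and 62.5 CPM at day 10. asRNA:CR45133 lies opposite the potassium channel gene KCNQ and stood at 11, 8.59 and 8.22 CPM at day 40, against 54.9, 50.1 and 13.7 CPM at day 10. For both, day 10 replicate 3 was the lowest library of its age. asRNA:CR44029 and asRNA:CR43425 both lie opposite unc-13, a gene for vesicle priming, and changed by -1.59 and -1.26 (edgeR, adjusted p = 0.02 and 0.0247), while unc-13 changed by -0.47 (edgeR, adjusted p = 0.203). A protein-coding gene with exons opposite was tested for 17 of the 20 lower antisense RNAs, which gave 19 partner genes. Of the 19 partners 16 had negative changes, 4 were called lower and 0 higher, with a median of -0.47. Among all tested protein-coding genes 47.3% had negative changes and 2.81% were called lower, and above 20 CPM 52 and 3.97%. In 14 of these pairs the partner was over 10 times as abundant as the antisense RNA. The counts are by strand, and the part of reads assigned to the wrong strand was not tested. Among the 10 higher RNAs, lncRNA:CR31781 stood at 62.4, 79.7 and 66.1 CPM at day 40, against 16.5, 13.5 and 14.9 CPM at day 10, and lncRNA:CR40469 at 409, 374 and 538 CPM at day 40, against 128, 151 and 103 CPM at day 10. asRNA:CR45198, on chromosome 4, stood at 10.2, 9.73 and 6.53 CPM at day 40, against 1.96, 1.04 and 1.46 CPM at day 10.

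Other RNA classes gave smaller groups of calls. Of 22 genes for splicing and 3 prime processing factors 5 were lower and 0 higher, among them snRNP-U1-70K, SC35 and nonA. SC35, a serine- and arginine-rich splicing factor, stood at 31.3, 31.6 and 31.7 CPM at day 40, against 45.2, 59.5 and 46.3 CPM at day 10. snRNP-U1-70K, a protein of the U1 particle that binds the 5 prime splice site, stood at 40.7, 43.3 and 35.1 CPM at day 40, against 52.5, 78.8 and 64.5 CPM at day 10. nonA changed by -0.59 (edgeR, adjusted p = 0.03). Of 46 small nucleolar RNAs 3 were higher (6.52%, below the 7.73% called among all tested genes), and the median of the list was -0.20. All 3 (snoRNA:Psi18S-1377a, b and d) belong to a single family of guides for the 18S ribosomal RNA whose copies are alike and may share reads. Of 13 tested tRNA genes all had negative changes and 1 was called (7.69%, near the 7.73% of all tested genes). Of the 10 calls in splicing factors, small nucleolar RNAs and the mitochondrial genome, 4, 1 and 4 stayed past the threshold without day 40 replicates 1, 2 and 3 in turn, and 2, 1 and 10 without day 10 replicates 1, 2 and 3 in turn. On chromosome 4, the small autosome that is largely heterochromatic, 12 of 96 tested genes were lower (12.5%) and 3 higher (3.12%), with a median of -0.26. The other chromosome arms held 2.58 to 3.84% lower and 3.03 to 5.33% higher genes.

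The levels of clock genes in day 40 replicate 3 were unlike those at either age. vri, a repressor in the clock, stood at 134, 138 and 973 CPM at day 40, against 54.2, 61.3 and 75.9 CPM at day 10. per, whose protein shuts down the clock's own activator, stood at 98.6, 121 and 665 CPM at day 40, against 67.4, 57.8 and 66.9 CPM at day 10. tim, its partner, had 589, 549 and 3986 CPM at day 40, against 403, 372 and 545 CPM at day 10. Clk, the activator, had 378, 314 and 91.5 CPM at day 40, against 432, 486 and 366 CPM at day 10. In day 40 replicate 3 vri, per and tim were each several times above the other day 40 libraries, and Clk was the lowest of the 6. Of 8 core clock genes vri and per were called higher (edgeR, adjusted p = 0.0323 and 0.0461). Without day 40 replicate 3 their log2 changes were 1.10 and 0.79 in place of 2.70 and 2.21, and both remained called (edgeR, adjusted p = 0.00918 and 0.0321). For tim, Pdp1 and cwo the changes without it were 0.37, 0.21 and 0.43, in place of 1.96, 1.15 and 1.74, and none of the 3 was called either way. The study's methods give a single late-morning window of harvest for all ages. The part of the hour of harvest within it in these values was not tested.

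Genes that respond to neuronal activity or stress kinases held 5 higher and 0 lower calls among 16. Besides Arc1 and Arc2 these were kay, the fly Fos, puc, a phosphatase that restrains the JNK kinase, and the stress transcription factor Atf3. puc stood at 226, 239.8 and 353 CPM at day 40, against 185, 158 and 127 CPM at day 10, and Atf3 at 100.3, 119 and 173 CPM at day 40, against 66.2, 77.5 and 73.9 CPM at day 10. kay changed by 0.78 (edgeR, adjusted p = 0.0127). For puc and Atf3 day 40 replicate 3 was the highest library, and without it their adjusted p-values were 0.0794 and 0.0566 (edgeR). Of the 7 called clock and activity genes, 7, 4 and 4 stayed past the threshold without day 40 replicates 1, 2 and 3 in turn, and 2, 1 and 5 without day 10 replicates 1, 2 and 3 in turn.

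**Figure D5:**
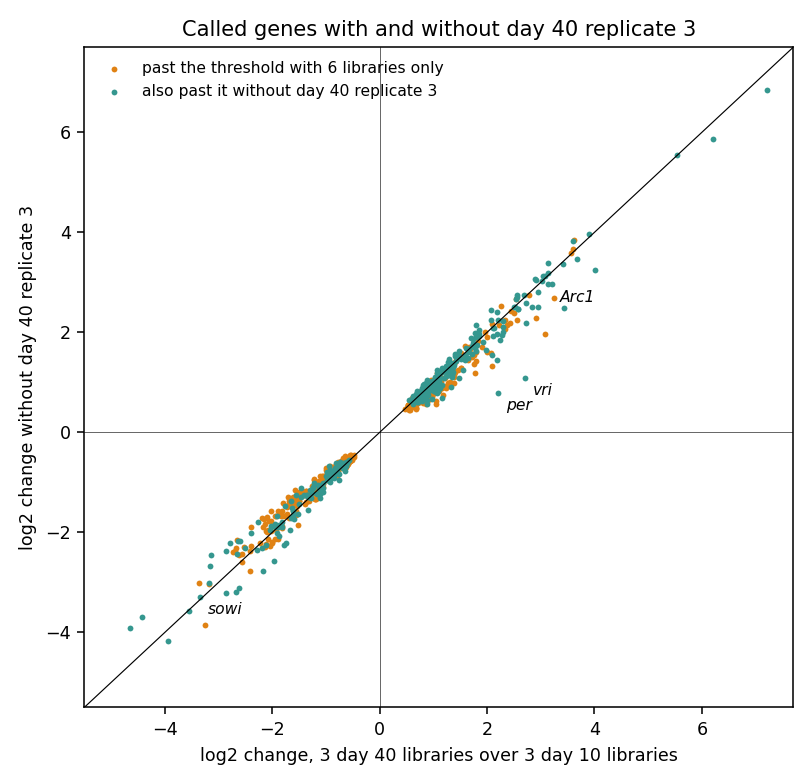
log2 change of the 764 called genes with all 6 libraries (x axis) against the change without day 40 replicate 3 (y axis), with the line of equality. All points lie in the same-sign quadrants; the 340 green genes passed the threshold both ways, and vri and per lie farthest below the line among the labelled genes.

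Markers of other cells were present and partly changed. Of 7 muscle markers tested all had positive changes and Act57B, Mf and Mlc2 were higher. Act57B, a muscle actin, stood at 85.2, 96.4 and 104 CPM at day 40, against 26.7, 16.8 and 37.5 CPM at day 10. The summed level of the muscle markers was 1280, 1625 and 1503 CPM at day 40, against 1170, 638 and 1143 CPM at day 10, so that day 10 replicate 2 was the lowest. The part of muscle nuclei in this was not tested. Among 10 glial markers loco was higher (1.04) and alrm lower (-0.77), and their summed level was 576, 647 and 632 CPM at day 40, against 576, 530.3 and 780 CPM at day 10. ple, the tyrosine hydroxylase of dopamine neurons, stood at 66.7, 74 and 169 CPM at day 40, against 23.7, 19.7 and 29.3 CPM at day 10, and Gad1, the enzyme of GABA synthesis, at 44.7, 65.8 and 45.4 CPM at day 40, against 110.4, 81.5 and 157 CPM at day 10. Crys, a protein of the corneal lens made by the cells around the photoreceptors, stood at 9.51, 10.6 and 11.5 CPM at day 40, against 45.7, 31.9 and 35.3 CPM at day 10. It was the only called gene of 4 pigment and cone cell markers, of which the other 3 had positive changes (median of the list 0.04). Lsp1beta, a fat body storage protein, was lower (-1.27, edgeR, adjusted p = 0.00493). It was the only called gene of 4 fat body and yolk markers tested, whose changes ranged from -1.27 to 0.92. The summed level of all 8 such markers was 2371, 2756 and 3118 CPM at day 40, against 3428, 2233 and 3373 CPM at day 10. In this sum the ages overlapped. Of the 9 called markers, 7, 5 and 5 stayed past the threshold without day 40 replicates 1, 2 and 3 in turn, and 3, 4 and 9 without day 10 replicates 1, 2 and 3 in turn.

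Sensory genes of the antenna, where the driver is also active, gave mixed calls. Of 19 hearing and cilium genes nompB, Dhc62B and Oseg4 were higher and Rfx lower. Dhc62B, an axonemal dynein heavy chain, stood at 16.2, 16.8 and 32 CPM at day 40, against 3.16, 6.35 and 4.31 CPM at day 10, and Rfx, a transcription factor for cilium genes, at 76, 70.2 and 72.3 CPM at day 40, against 105, 110.4 and 101 CPM at day 10. Among 34 chemoreceptor genes Ir75a was higher and Ir48c, Ir60a and Ir85a were lower. Ir85a was the most abundant of them, with 28.1, 28.9 and 18.2 CPM at day 40, against 88.1, 70.9 and 35.7 CPM at day 10. Among 19 odorant-binding protein genes Obp56e and Obp57a were higher (1.23 and 0.96) and Obp85a was lower (-1.90). Calls made up 21.1% of the hearing and cilium genes, 11.8% of the chemoreceptor genes and 15.8% of the odorant-binding protein genes. Among all tested genes the share was 7.73%. Of these 11 calls, 7, 4 and 4 stayed past the threshold without day 40 replicates 1, 2 and 3 in turn, and 2, 2 and 10 without day 10 replicates 1, 2 and 3 in turn.

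The path between the end points was read from the intermediate ages, as means with no test, on a common scale of 14 libraries. Xrp1 averaged 198, 358, 456, 499 and 658 CPM at days 10, 20, 25, 30 and 40, and dpr11 averaged 81.2, 115.3, 153, 167 and 281 CPM. Both means were higher at each later age. Sh averaged 5204, 2976, 2314, 2072 and 2106 CPM, and M7BP 12938, 8567, 6798, 7010 and 5972 CPM. For these the largest step was the first. Ldh averaged 1.68, 2.0, 4.19, 5.59 and 15.1 CPM, and hzg 212, 298, 425, 422 and 927 CPM, with the largest step between days 30 and 40. Day 30 has 2 libraries and the other ages 3.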

How the data were processed

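Nuclear RNA was sequenced from affinity-purified photoreceptor nuclei of male flies. The authors trimmed reads, aligned them to BDGP6 and counted pairs per gene by strand, with pairs of several alignments left out. The submitters' processing notes name Trimmomatic, TopHat, SAMtools, HTSeq and edgeR. The deposited table holds raw counts, and HTSeq's summary lines were left out of library sizes and tests. The authors' CPM table of filtered genes was not used, and their filtered counts served only to choose genes for 1 alternative.

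Groups came from the labels. Descriptions number the columns from 0 and the table from 1, so that only the age was taken for columns numbered 1 and 2. The 6 libraries were fitted by age with edgeR 4.0.16 (quasi-likelihood F test, R 4.3.3), TMM scaling and Benjamini-Hochberg adjustment at 0.05, and the standard error was the log2 change divided by the root of F. CPM in the text uses TMM-scaled totals, except in the filter (CPM over 1 in at least 3 of 6 libraries). Gene depth was 9943283 to 18515000 counts, where 3 counts equal 0.162 to 0.302 CPM. Such floors take in counting error alone, since pairs are not independent molecules. Alternatives were DESeq2 1.42.0, limma-voom 3.58.1, other scalings, filters and fits, and each library left out. The tests were tested on simulated data. Fits of all ages left out day 30 replicate 3, which the study discarded.

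Symbols and positions came from the Ensembl annotation of the same assembly and were found for 17252 genes, with 18 more symbols from the study's supplementary tables. Of 878 list entries 835 matched a gene. Named genes were the 12 highest and 12 lowest changes among called genes with a mean of at least 10 CPM, no overlap of the ages and the same sign without day 40 replicate 3, the 6 most abundant non-overlapping calls in each direction, and up to 4 calls in each direction for each list. rad50, Dif, kay and others outside these rules are named because counts of few genes rest on them, and Cyp4g1, unc-13, the genes outside the lists in the closing section and the noncoding RNAs described with their partner genes were chosen after their values were seen. Members, lists and rules were chosen with earlier results of these data known. Calls of genes that the study named from these samples are no independent evidence, whichever list holds them.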

Additional observations from a re-analysis of the deposited data

How the results depend on the processing

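The 764 calls (436 higher, 328 lower) became 1258 with DESeq2 (659 lower), 421 with a log2 change of at least 1 required (232 higher, 189 lower) and 22 with the ratio of unassigned pairs as a covariate (18 higher, 4 lower). Scaling by library size alone gave 198 lower genes, and no filter on low counts gave 557. Leaving out each library gave 107 to 1182 calls, 76 to 567 higher and 31 to 615 lower. The other alternatives stayed within 1.5 times of these counts: DESeq2 size factors gave 769, limma-voom 613, the authors' filtered genes 672, all 5 ages 1136, and all 5 ages without day 40 replicate 3 (added after seeing the data) 601. The cause of these differences was not tested, except that a fold threshold and the smaller gene set remove genes by construction. Of 156 named genes mthl13 (0.16) and Cyp4ac2 (0.084) changed sign, both with the covariate, and 0 under the other alternatives. The mitochondrial share and the ratio of unassigned pairs stayed lower at day 40 without each library, by 0.654 to 1.11 percentage points and by 30.2 to 51.5 pairs per 100 gene counts. With the replicate number as a block 595 genes were called. The numbers do not pair the libraries, since the correlations of same-numbered deviations were 0.06, -0.15 and 0.01. Depth limits the genes near 1 CPM, and 3 libraries at each age leave calls dependent on single libraries.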

Other observations

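Several groups outside the lists were put together after the values of their members were seen, and they are given as counts over all tested members of each family or pathway, with no test of the group. Of 13 genes of the Tsp42E tetraspanin cluster on chromosome 2R, which encode membrane proteins, 5 were higher and 0 lower (median log2 change 0.81). The summed level of all 17 cluster genes was 451, 425 and 465 CPM at day 40, against 507, 460 and 426 CPM at day 10, and the ages overlapped. Tsp42Ej, which the study named as falling, averaged 286 CPM at day 10 and 199 CPM at day 40 on the scale of 14 libraries. Tsp42Ed stood at 25.2, 22.5 and 21.9 CPM at day 40, against 6.54, 8.13 and 10.8 CPM at day 10, and Tsp42En at 16.9, 15.6 and 28.6 CPM at day 40, against 6.11, 3.13 and 3.48 CPM at day 10. Tsp42Eo was close to the counting floor at day 10, with 4.99, 2.29 and 3.21 CPM at day 40, against 0.109, 0.625 and 0.0 CPM at day 10. Of 6 genes of the methionine cycle and transsulfuration, which pass sulfur from methionine to cysteine, Gnmt, Cbs, Sqor and Ahcy were higher (median 1.33). Cbs, the cystathionine beta-synthase, stood at 135, 95.3 and 77.8 CPM at day 40, against 21.1, 26.4 and 25.2 CPM at day 10 (log2 change 2.08 ± 0.21, edgeR, adjusted p = 0.000594). Sam-S, which makes S-adenosylmethionine, stood at 206, 187 and 158 CPM at day 40, against 189.8, 196 and 188 CPM at day 10, and its ages overlapped.

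Of 12 genes for iron-sulfur clusters and heme, 6 were higher and 0 lower (median 0.63). FeCH, the ferrochelatase that inserts iron into heme, stood at 23, 17.3 and 18.9 CPM at day 40, against 9.38, 8.86 and 5.14 CPM at day 10. Nfs1 and IscU, the desulfurase and the scaffold of cluster assembly, changed by 0.79 and 0.75 (edgeR, adjusted p = 0.0286 and 0.0265). Genes of the piRNA pathway, which silences transposons in the germ line, held 3 higher and 0 lower calls among 17 (median 0.46). tej, a Tudor domain protein, stood at 26.2, 21.7 and 9.09 CPM at day 40, against 8.94, 5.1 and 2.64 CPM at day 10. qin and mael stood at 8.1, 8.18 and 2.99 CPM at day 40, against 1.64, 1.98 and 0.973 CPM at day 10 for qin and 2.07, 4.17 and 5.44 CPM at day 40, against 0.436, 0.417 and 1.04 CPM at day 10 for mael. The transcript of the flamenco piRNA cluster, lncRNA:flam, stood at 8.47, 5.32 and 5.93 CPM at day 40, against 2.29, 2.92 and 1.74 CPM at day 10. Each of these 4 was measured at a low level. Of 7 coatomer subunits alphaCOP, betaCOP and deltaCOP were higher, with log2 changes of 0.55 to 0.63, and of 5 actin genes Act57B, Act87E and Act42A were higher while Act5C, the main cytoplasmic actin, changed by -0.16 (edgeR, adjusted p = 0.599). Of the 24 calls in these groups, 13, 8 and 12 stayed past the threshold without day 40 replicates 1, 2 and 3 in turn, and 6, 6 and 21 without day 10 replicates 1, 2 and 3 in turn.

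Among the lower genes, 4 of 6 tested genes for corneal lens and Vajk proteins were called and 0 had a positive change (median -1.55). Besides Crys these were retinin, a lens protein, at 17.6, 27.3 and 25.2 CPM at day 40, against 58.3, 46.7 and 64.4 CPM at day 10, and Vajk1 and Vajk2, with log2 changes of -2.04 and -1.98 (edgeR, adjusted p = 0.0282 and 0.0432). All 3 scpr genes were lower. scpr-C stood at 1.98, 0.654 and 2.83 CPM at day 40, against 12.8, 15.7 and 7.44 CPM at day 10, and scpr-A and scpr-B changed by -2.15 and -2.18 (edgeR, adjusted p = 0.0461 and 0.0181). They are neighbouring copies on chromosome 3R that may share reads. Of 7 cup genes, which are known from male germ cells, s-cup and h-cup were lower, and s-cup stood at 16.6, 11.8 and 13.9 CPM at day 40, against 59, 61.4 and 29.2 CPM at day 10. Of 17 neprilysin-like genes Nepl20, Nepl17, Nepl14 and Nepl21 were lower and 0 higher (median -0.66). Of these 13 calls, 9, 5 and 8 stayed past the threshold without day 40 replicates 1, 2 and 3 in turn, and 3, 3 and 13 without day 10 replicates 1, 2 and 3 in turn.

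The 22 genes called with the ratio of unassigned pairs in the model were all among the 764. The higher ones included Arc1, CG9759, Muc14A, CR43281, CG14907, lncRNA:CR31781, Cbs, dpr11, tej and bnl, the gene of a fibroblast growth factor that guides tracheal branches. bnl stood at 76.4, 75.4 and 85.4 CPM at day 40, against 20.4, 16.5 and 17.1 CPM at day 10. The lower ones were mt:lrRNA, CG8329, CG11211 and CG7829. Several lists held 0 calls by edgeR. Among them, at an unadjusted p under 0.05, were 7 lower of 22 photoreceptor fate factors (3 lower by DESeq2, 0 by limma-voom), 5 lower of 11 voltage-gated sodium and calcium channels (1 lower by DESeq2, 0 by limma-voom), 5 higher of 16 small RNA silencing genes (2 higher by DESeq2, 0 by limma-voom) and 0 of 12 sirtuins and histone deacetylases (0 by DESeq2 and limma-voom).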
